A study of Homo sapiens with 4 samples.

Results

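The 57 genes described here are direct targets of the transcription factor p53 that lie mostly outside its best known arrest and apoptosis effectors, such as the nuclease gene AEN, the plexin gene PLXNB2 and the RNA-binding protein gene ZMAT3. They were taken by symbol from a list of p53-bound and p53-induced genes, and all 57 symbols matched 1 gene each among 61852 genes in the tables. The rule itself uses no value measured in these libraries, but the members were chosen with earlier results of these data known. All 57 passed the filter on low counts and were tested.

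p53 is a tetrameric transcription factor that binds paired decamer motifs near its target genes and raises their transcription. After DNA damage it is stabilized and activated, and its targets stop the cell cycle, start cell death and change repair, metabolism and signalling. Many of the wider targets encode enzymes, receptors, secreted factors and adaptors, and a number are thought to give the p53 response its tissue-specific range.

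RNA was sequenced from H1299, an established non-small-cell lung carcinoma line labelled p53-/-, in 2 libraries of cells expressing wild-type p53 (p53WT) and 2 libraries of cells expressing CASM34. The title of the series speaks of synonymous mutations associated with cancer, which change a codon without changing the amino acid, and of the DNA damage response of p53. CASM34 is named as a mutant, and the comparison asks whether the RNA of these target genes is higher or lower with CASM34 than with p53WT. Both groups share the p53-null line and the same medium with serum and antibiotics. The labels give no treatment with a DNA-damaging agent, no vector, promoter or clone for the expressed p53, and nothing on whether the 2 libraries of a group came from separate cultures. If they did not, the p-values below reflect technical spread alone. Parental H1299 cells were not analysed here. All values are relative to p53WT and do not show induction by p53 itself.

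The libraries held 18086983 to 26906095 estimated counts each. Of the markers of epithelial lines, KRT18 and KRT8 were abundant (1011 to 1035 and 501 to 556 CPM, counts per 1e6 counts, scaled by TMM), while EPCAM and CDH1 were at most 0.310 and 0.110 CPM. The lung lineage marker NKX2-1 was at most 0.658 CPM. FOXA2, the 1 of 8 lung lineage markers that passed the filter, lay at 1.24 to 1.95 CPM. The mesenchymal list summed to 4418 to 4659 CPM, most of it from VIM at 4239 to 4484 CPM. FN1, CDH2, ZEB1 and TWIST1 lay between 12.5 and 85.7 CPM, and SNAI2 at 0.232 to 0.449 CPM. The lysosomal gene CD68 was the 1 of 8 leukocyte markers that passed the filter, at 89.9 to 102 CPM without a difference between groups beyond their spread, and the pan-leukocyte gene PTPRC was at 0 in all 4 libraries.

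In CASM34 5 of the 57 members rose and 0 fell. These were PLXNB2, SAC3D1, EPS8L2, AEN and CES2, and their rises lay between 0.21 and 0.38 on the log2 scale. The share that rose, 8.77%, stands beside 1.61% of all 15965 genes tested that rose and 0.345% that fell. At an unadjusted p under 0.05 22 members were higher and 0 lower by edgeR, or 38.6%, beside 10.3% of all genes tested that were higher and 6.81% that were lower. DESeq2 called 2 members higher, PLXNB2 and SAC3D1, and 0 lower, beside 137 higher and 58 lower among all genes in that fit. ANKRA2, EDA2R, GLS2, GREB1, MR1, PHLDA3, PLCL2 and VWCE had no adjusted p in DESeq2 and could not be called. The genes with an adjusted p in DESeq2 were not counted, so no share of all genes is given. The count of 5 members that rose changed when single libraries were left out. The median log2 fold change of the members was 0.10 without p53WT replicate 1 and 0.09 without p53WT replicate 2. Without CASM34 replicate 1 or 2 it was 0.11 or 0.09, respectively. The fitted log2 fold change lay above 0 for 44 members and below 0 for 13, where 49.8% of all genes tested lay above 0. The median over the members was 0.11, beside -0.00055 over all genes tested. None of the 5 passed in the fits on TPM (transcripts per 1e6) or with an offset for effective length. The fits on TPM called 0 of all genes, and the fit with that offset called 5 higher and 0 lower.

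Sample by sample, both CASM34 libraries lay above both p53WT libraries for 30 members, below both for 1, and overlapped them for 26. Over all genes tested 24.5% lay above in this way and 23.4% below. The summed level of the 57 members was 3640 and 3616 CPM in p53WT and 3856 and 3907 CPM in CASM34. A comparison of 2 against 2 libraries by exact permutation cannot go below p = 0.333, so single genes were judged only by the fit across all genes.

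**Figure D1:**
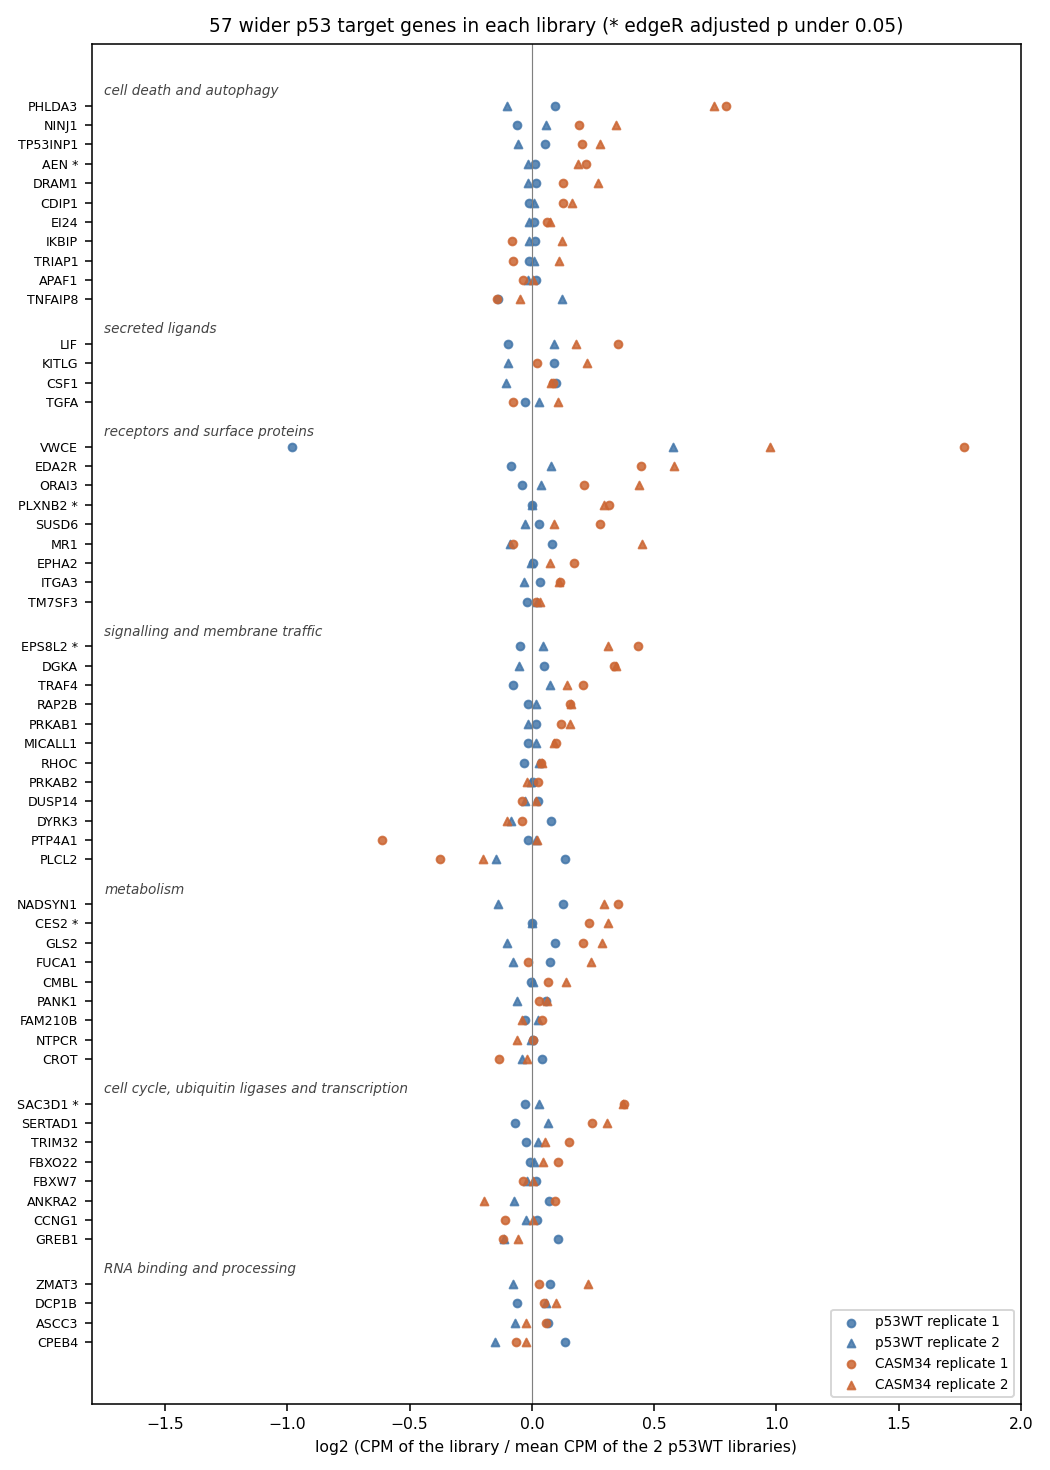
Level of each of the 57 members in each library, as log2 of its CPM over the mean CPM of the 2 p53WT libraries, grouped by role; blue points are p53WT, orange points are CASM34, circles are replicate 1 and triangles replicate 2, and an asterisk marks the 5 members that rose. In 30 members both orange points lie to the right of both blue points, and VWCE and PTP4A1 show the widest scatter.

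The differences followed the base composition of the transcripts, in the members as in all genes. All 5 members that rose had a transcript GC content of 55.5% to 68.4%, and the median member had 49.0%, close to 49.5% for all genes tested. Of the 20 members under 45% GC and the 19 from 45% to under 55%, 0 rose, and 11 and 15 lay above 0. Of the 6 from 55% to under 60% 2 rose and of the 12 at 60% or more 3 rose, and all 18 lay above 0. Among all genes tested 26.1%, 43.7%, 72.3% and 89.2% lay above 0 in these 4 ranges, from the lowest GC content to the highest, so the 12 of 12 members in the highest range stand beside a share of 89.2%. The shares of all genes that rose were 0.177%, 0.359%, 1.19% and 7.98% in the same order. Across the 57 members, which share the same 4 libraries, the Spearman rho between GC content and fold change was 0.62, and across 15652 genes tested with a GC value it was 0.47.

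Within each of these ranges of GC content the median member lay above the median gene. The medians were 0.01 for the members and -0.07 for all genes under 45% GC, 0.10 and -0.02 from 45% to under 55%, 0.24 and 0.07 from 55% to under 60%, and 0.28 and 0.17 at 60% or more. When each library's smooth trend on GC content and effective length was removed by an offset in the edgeR fit, 0 members passed, and 22 of all genes tested were called higher (0.138%) and 22 lower (0.138%). The 43 members above 0 then made up 75.4%, against 43.5% of all genes, with a median of 0.08 against -0.02. At an unadjusted p under 0.05 13 members were higher in that fit (22.8%, beside 4.14% of all genes) and 1 was lower (beside 8.51% of all genes). All 5 members that rose lay closer to 0 with the offset: AEN at 0.13, CES2 and EPS8L2 at 0.14, PLXNB2 at 0.10 and SAC3D1 at 0.06 (edgeR adjusted p = 0.195, 0.348, 0.427, 0.330 and 0.660).

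**Figure D2:**
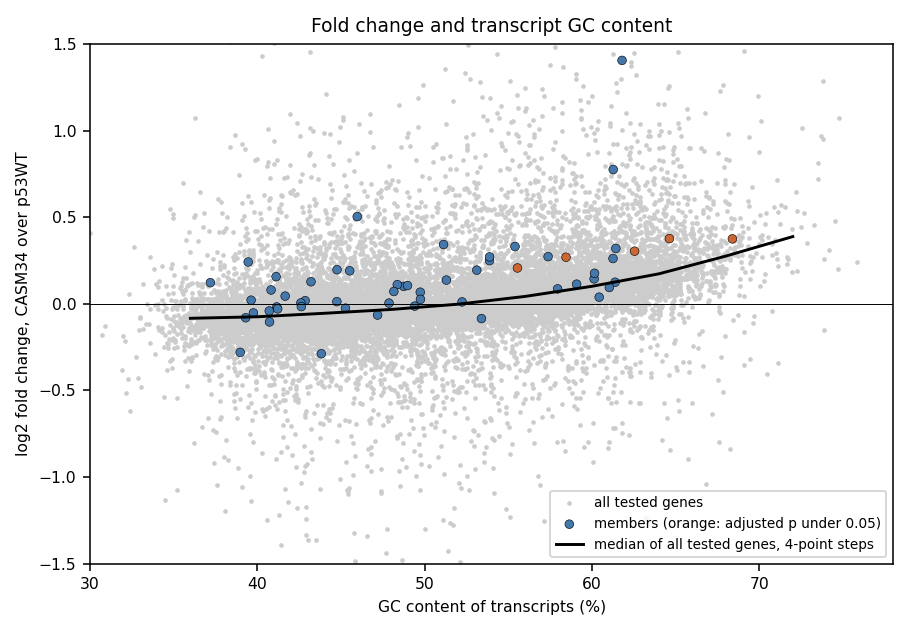
Log2 fold change of CASM34 over p53WT (vertical axis) against the GC content of each gene's transcripts in percent (horizontal axis); grey points are genes tested, large points are the 57 members with the 5 that rose in orange, and the black line is the median of all genes tested in steps of 4 percentage points. The black line climbs with GC content and the orange points lie between 55.5% and 68.4% GC; 70 genes fall outside the axes, none of them a member.

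For 48 of the 57 members a promoter window of 250 bases before to 50 after an annotated start was at hand (RefSeq, GRCh38.p14). The windows were searched for the p53 decamer, the 10-base motif that p53 binds in pairs, which reads the same on both strands and was required to match its consensus without a mismatch. It was present in 6 of 75 member windows (8%), against 6.63% of 35116 windows of all genes, and a pair of decamers up to 13 bases apart was in 0 member windows and in 0.0285% of all windows. Because p53 sites often lie in introns or further away and bear mismatches, a window without a match says only that these letters are not in it. The 6 matches are shown with 10 bases on each side, on the strand of the gene and with the decamer in capitals, since 2 of them belong to members that rose (AEN and EPS8L2).
AEN, chr15:88621306-88621315, plus strand, first base 34 before the start: agtcggagccGGGCTTGCCCgggcatgtgg
EPS8L2, chr11:720515-720524, plus strand, first base 125 before the start: cctgtgctccAGGCTTGTCCacagctccgg
EI24, chr11:125569467-125569476, plus strand, first base 10 before the start: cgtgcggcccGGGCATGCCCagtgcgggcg
RAP2B, chr3:153162165-153162174, plus strand, first base 61 before the start: ggaacgcactGGGCATGCTCgccggggagg
PANK1, chr10:89645256-89645265, minus strand, first base 23 before the start: gggcaggactGGGCATGCTCagtggcgggg
MR1, chr1:181033316-181033325, plus strand, first base 71 before the start: ctagctccctGGACAAGCTTaagctgctgt
RAP2B and PANK1 carry the same decamer letters. Of the 6 genes AEN and EPS8L2 rose, and EI24, RAP2B, PANK1 and MR1 did not pass, at 0.07, 0.16, 0.04 and 0.19. The EPS8L2 match lies before an internal start of that gene.

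Among the 11 members with roles in cell death and autophagy, 1 rose, 0 fell and 10 did not pass, with a median log2 fold change of 0.14. AEN encodes an exonuclease that digests DNA and RNA during apoptosis (ENSG00000181026.15, GRCh38 chromosome 15, 88621296 to 88632282, plus strand, GENCODE 29). It lay at 102 and 100 CPM in p53WT and at 118 and 115 CPM in CASM34, so the groups did not overlap. The means were 101 ± 1.36 and 117 ± 1.84 CPM (SD, n = 2 each), and AEN rose by 0.21 (SE 0.05, 1.15-fold, edgeR adjusted p = 0.0392). It no longer passed without p53WT replicate 1, p53WT replicate 2 or CASM34 replicate 1, where it lay at 0.22, 0.19 and 0.19 (edgeR adjusted p = 0.152, 0.173 and 0.0882), or in DESeq2 (adjusted p = 0.121).

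PHLDA3, an inhibitor of the survival kinase AKT, had the largest fitted fold change of this role and few reads. It lay at 1.15 and 1.01 CPM in p53WT and 1.87 and 1.81 CPM in CASM34, from 25 to 50 counts per library, a log2 fold change of 0.78 (SE 0.30) that did not pass (edgeR adjusted p = 0.207). NINJ1, whose protein ruptures the plasma membrane of dying cells, lay at 31.1 and 33.8 CPM in p53WT and 37.0 and 41.2 CPM in CASM34, a log2 fold change of 0.26 (edgeR adjusted p = 0.0889). For both genes the 2 CASM34 libraries were the higher ones. TP53INP1, which links p53 to autophagy and apoptosis, lay at 34.4 and 31.9 CPM and at 38.2 and 40.2 CPM, a value of 0.24 that did not pass (edgeR adjusted p = 0.0877). An overlapping gene on the other strand, NDUFAF6, averaged 14.9 CPM against 36.2 CPM for TP53INP1.

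The lysosomal autophagy gene DRAM1, the death-inducing gene CDIP1 and the endoplasmic reticulum gene EI24 also had both CASM34 libraries on the higher side, with log2 fold changes of 0.20, 0.14 and 0.07. The GC and length offset moved CDIP1 to -0.01. APAF1, the scaffold of the apoptosome, lay at 41.9 and 41.0 CPM in p53WT and at 40.4 and 41.6 CPM in CASM34, so its groups overlapped. Its log2 fold change was -0.02 with a 95% interval from -0.15 to 0.11. The death inhibitor TRIAP1 and IKBIP, a binding partner of an NF-kB kinase, lay at 0.01 and 0.02, and TNFAIP8, which restrains caspases, at -0.10. None of these 7 passed.

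None of the 4 secreted ligands passed, and all 4 fitted values lay above 0. The cytokine gene LIF lay at 22.8 and 26.0 CPM in p53WT and 31.2 and 27.6 CPM in CASM34, without overlap, which gave a value of 0.27 on the log2 scale (SE 0.09, edgeR adjusted p = 0.133). Per effective length LIF differed more, with 7.66 and 9.29 TPM in p53WT and 12.7 and 12.1 TPM in CASM34, a value of 0.50 on the log2(TPM + 1) scale (limma adjusted p = 0.340). Its deposited effective length was shorter in CASM34 by 0.29 on the log2 scale. KITLG, the ligand of the receptor KIT, lay at 11.4 and 9.99 CPM in p53WT and 10.8 and 12.5 CPM in CASM34, and the groups overlapped (log2 fold change 0.12, SE 0.12). The macrophage growth factor CSF1 and the epidermal growth factor receptor ligand TGFA lay at 0.09 and 0.01, with overlapping groups.

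Receptors and other surface proteins, with which the secreted protein gene VWCE was grouped, had the highest median of the 7 roles, 0.19. All 9 members lay above 0, of which 1 rose. Their median GC content, 59.1%, was also the highest of the 7 roles, and 72.3% of all genes tested from 55% to under 60% GC lay above 0. PLXNB2, a receptor for semaphorins, is encoded at chromosome 22, 50274979 to 50307627, minus strand (ENSG00000196576.16). It lay at 143 CPM in both p53WT libraries and at 177 and 175 CPM in CASM34. The means were 143 ± 0.0284 and 176 ± 1.75 CPM (SD, n = 2 each), and PLXNB2 rose by 0.30 (SE 0.04, 1.23-fold, edgeR adjusted p = 0.00645). It passed without each library in turn, at 0.29 to 0.31, and did not pass in the fits on TPM or with an effective length offset, at 0.30 to 0.32 (adjusted p = 0.180 to 0.343).

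VWCE, which encodes a secreted protein with von Willebrand factor C domains, had 4 and 14 counts in p53WT and 33 and 13 in CASM34, or 0.184 and 0.542 against 1.24 and 0.712 CPM. Its log2 fold change of 1.40 was the largest of all members, with an SE of 0.54, and did not pass (edgeR adjusted p = 0.200). EDA2R, a receptor for ectodysplasin, had 18 to 32 counts per library. It lay at 0.829 and 0.929 CPM in p53WT and 1.20 and 1.32 CPM in CASM34 (log2 fold change 0.50, SE 0.36, edgeR adjusted p = 0.519). In both genes the 2 CASM34 libraries were the higher ones, and the 95% intervals were wide, from 0.24 to 2.57 for VWCE and from -0.28 to 1.28 for EDA2R.

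The 2 most abundant surface genes in CPM had small differences. ITGA3, an integrin subunit that binds laminin, lay at 583 and 558 CPM in p53WT and 617 CPM in both CASM34 libraries, and EPHA2, an ephrin receptor, at 382 and 381 CPM and at 430 and 401 CPM. The groups did not overlap in either gene. The log2 fold changes, 0.11 for ITGA3 and 0.12 for EPHA2, did not pass (edgeR adjusted p = 0.222 and 0.202). Both turned below 0 in the fit with the GC and length offset, to -0.02 and -0.05. The calcium channel gene ORAI3, with fractional counts in all 4 libraries, lay at 0.32, the membrane gene SUSD6 at 0.19, the antigen-presenting gene MR1 at 0.19 and the membrane gene TM7SF3 at 0.03, and none of these passed.

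**Figure D3:**
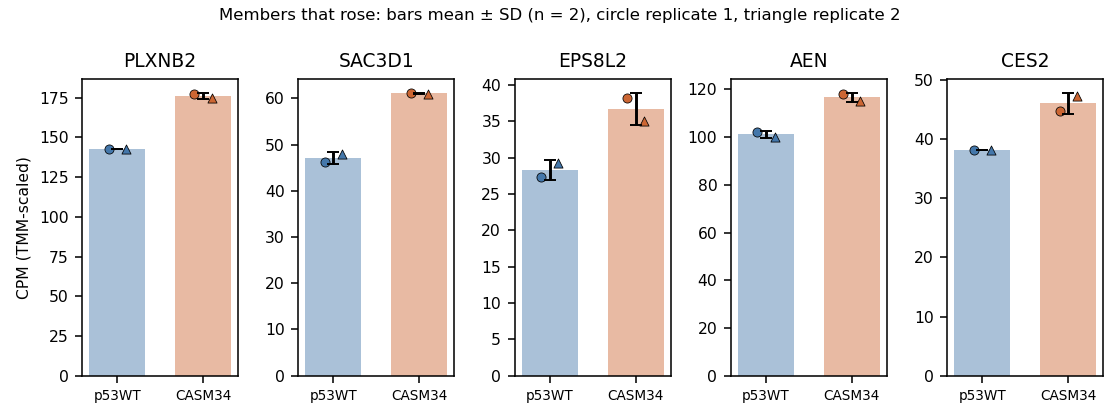
CPM of the 5 members that rose, 1 panel each with its own vertical axis from 0; bars are the mean of 2 libraries, error bars the SD, circles replicate 1 and triangles replicate 2. In each panel both CASM34 points lie above both p53WT points.

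Among 12 genes of signalling and membrane traffic 1 rose, 0 fell and 11 did not pass, with a median of 0.07. EPS8L2, an actin-regulating adaptor related to the receptor substrate EPS8, is encoded at chromosome 11, 694438 to 727727, plus strand (ENSG00000177106.17). It lay at 27.4 and 29.3 CPM in p53WT and 38.3 and 35.1 CPM in CASM34, and it rose by 0.38 (SE 0.07, edgeR adjusted p = 0.0216). It did not pass without p53WT replicate 1, at 0.33 (edgeR adjusted p = 0.172), or in DESeq2 (adjusted p = 0.0937). In TPM the libraries lay at 18.5 and 24.7 for p53WT and 24.2 and 26.6 for CASM34, so that the groups overlapped on that scale. EPS8L2 had fractional counts in 3 libraries, and the annotated gene DEAF1 overlaps it and averaged 24.1 CPM, so its level is uncertain.

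DGKA, a kinase that turns diacylglycerol into phosphatidic acid, lay at 12.6 and 11.7 CPM in p53WT and 15.3 and 15.4 CPM in CASM34, or 0.34 on the log2 scale (SE 0.10, edgeR adjusted p = 0.106). The overlapping gene PYM1 averaged 14.9 CPM, more than the 13.7 CPM of DGKA, so this value is uncertain. The small GTPase gene RAP2B lay at 94.1 and 96.1 CPM and at 106 CPM in both CASM34 libraries (0.16, edgeR adjusted p = 0.102). The offset for GC content and length moved it to 0.19. The adaptor TRAF4, the AMPK subunit PRKAB1 and the endocytic gene MICALL1 lay at 0.18, 0.14 and 0.09, with groups that did not overlap.

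PRKAB1 and PRKAB2 encode the 2 alternative beta subunits of AMPK, the kinase that senses low cellular energy. PRKAB1 lay at 46.2 and 45.2 CPM in p53WT and 49.7 and 50.9 CPM in CASM34. PRKAB2 lay at 24.9 and 24.8 CPM and at 25.3 and 24.5 CPM, with overlapping groups and a log2 fold change of 0.00 (95% interval from -0.16 to 0.17). Per effective length its groups did not overlap, at 7.46 and 7.20 TPM in p53WT and 6.41 and 6.21 TPM in CASM34. The deposited effective length of PRKAB2 was longer in CASM34 by 0.21 on the log2 scale. With the effective length offset PRKAB2 lay at -0.21 (edgeR adjusted p = 0.470). The difference between these 2 genes was not tested.

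PTP4A1, a prenylated protein phosphatase, was set apart by 1 library and was chosen for description after its values had been seen. It lay at 111 and 114 CPM in p53WT, 73.3 CPM in CASM34 replicate 1 and 114 CPM in CASM34 replicate 2. The log2 fold change was -0.28 (SE 0.13, edgeR adjusted p = 0.297), and it turned to 0.02 without CASM34 replicate 1, while without CASM34 replicate 2 it lay at -0.62. A fit with a single CASM34 library cannot measure the spread within CASM34. RSEM gave it fractional counts in each library, which marks reads divided among gene models, so its level is uncertain. PLCL2, a phospholipase C relative, was the 1 member whose CASM34 libraries both lay below p53WT, at 8.01 and 6.58 CPM in p53WT and 5.62 and 6.36 CPM in CASM34 (log2 fold change -0.29, SE 0.16, edgeR adjusted p = 0.374). The GTPase gene RHOC, the most abundant member per length at 517 to 530 TPM, lay at 0.04, and the kinase gene DYRK3 and the phosphatase gene DUSP14 at -0.06 and -0.01.

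Of 9 members in metabolism 1 rose, 0 fell and 8 did not pass, and the median was 0.10. CES2, a carboxylesterase that hydrolyses esters and drugs such as irinotecan, is encoded at chromosome 16, 66934444 to 66945096, plus strand (ENSG00000172831.14). It lay at 38.2 CPM in both p53WT libraries and at 44.9 and 47.3 CPM in CASM34, and it rose by 0.27 (SE 0.06, 1.21-fold, edgeR adjusted p = 0.0427). It did not pass without p53WT replicate 1, p53WT replicate 2 or CASM34 replicate 2, at 0.26, 0.27 and 0.23 (edgeR adjusted p = 0.202, 0.153 and 0.0594), with scaling by library totals (edgeR adjusted p = 0.0594) or in DESeq2 (adjusted p = 0.232). Counts of CES2 were fractional in all 4 libraries.

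NADSYN1, which makes NAD in the last step of its synthesis, lay at 25.6 and 21.3 CPM in p53WT and 29.96 and 28.8 CPM in CASM34, without overlap. Its log2 fold change was 0.33 (SE 0.09, edgeR adjusted p = 0.0827), and 0.26 in the fit with the GC and length offset. GLS2, the p53-responsive glutaminase, was low at 3.02 to 3.95 CPM with a value of 0.25, and its overlapping gene SPRYD4 averaged 17.8 CPM, so GLS2 is uncertain. The fucosidase gene FUCA1, the hydrolase gene CMBL and the coenzyme A synthesis gene PANK1 lay at 0.11, 0.10 and 0.04. The mitochondrial gene FAM210B, the nucleotide phosphatase gene NTPCR and the carnitine transferase gene CROT lay at 0.00, -0.02 and -0.08. NTPCR, at 26.4 CPM, is overlapped by PCNX2 at 7.64 CPM and is uncertain as well.

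Among 8 members linked to the cell cycle, ubiquitin ligases and transcription 1 rose, 0 fell and 7 did not pass, with a median of 0.03. SAC3D1, a centrosome-associated protein gene, is encoded at chromosome 11, 65040901 to 65044828, plus strand (ENSG00000168061.17). It had the highest GC content of the members, 68.4%. It lay at 46.2 and 48.0 CPM in p53WT and 61.2 and 61.0 CPM in CASM34, and it rose by 0.38 (SE 0.05, edgeR adjusted p = 0.00645). It passed without each library in turn, at 0.34 to 0.41. Its value with the GC and length offset, 0.06, was the furthest from its own fit among the 5 members that rose.

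SERTAD1, a regulator of CDK4 and E2F activity, lay at 31.8 and 34.8 CPM in p53WT and 39.5 and 41.2 CPM in CASM34, without overlap. Its log2 fold change, 0.27 with an SE of 0.07, did not pass (edgeR adjusted p = 0.0638). The offset for GC content and length moved it to 0.22. CCNG1, the cyclin G gene and a long-known p53 target, lay at 164 and 159 CPM in p53WT and 149 and 162 CPM in CASM34, with overlapping groups. Its log2 fold change was -0.05, with a 95% interval from -0.16 to 0.06. The ubiquitin ligase genes TRIM32, FBXO22 and FBXW7 lay at 0.11, 0.08 and -0.02. The ankyrin gene ANKRA2 lay at -0.03 and the estrogen-responsive gene GREB1 at -0.09. The deposited effective length of GREB1 was shorter in CASM34 by 0.51 on the log2 scale. With the effective length offset GREB1 turned to 0.42 (edgeR adjusted p = 0.584). Genes that overlap ANKRA2 and TRIM32, UTP15 at 27.2 CPM and ASTN2 at 14.6 CPM, compare with 7.78 and 31.9 CPM for the members themselves, so both are uncertain.

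None of the 4 members that bind or process RNA passed, and in all 4 the groups overlapped. ZMAT3, a zinc finger protein that controls splicing downstream of p53, lay at 27.8 and 25.0 CPM in p53WT and 26.9 and 30.9 CPM in CASM34 (log2 fold change 0.13, SE 0.09, edgeR adjusted p = 0.496). DCP1B, a decapping cofactor, lay at 12.8 and 14.0 CPM and at 13.9 and 14.4 CPM (0.07, SE 0.10, edgeR adjusted p = 0.774). The helicase gene ASCC3 and the polyadenylation regulator CPEB4 lay at 0.02 and -0.04.

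**Figure D4:**
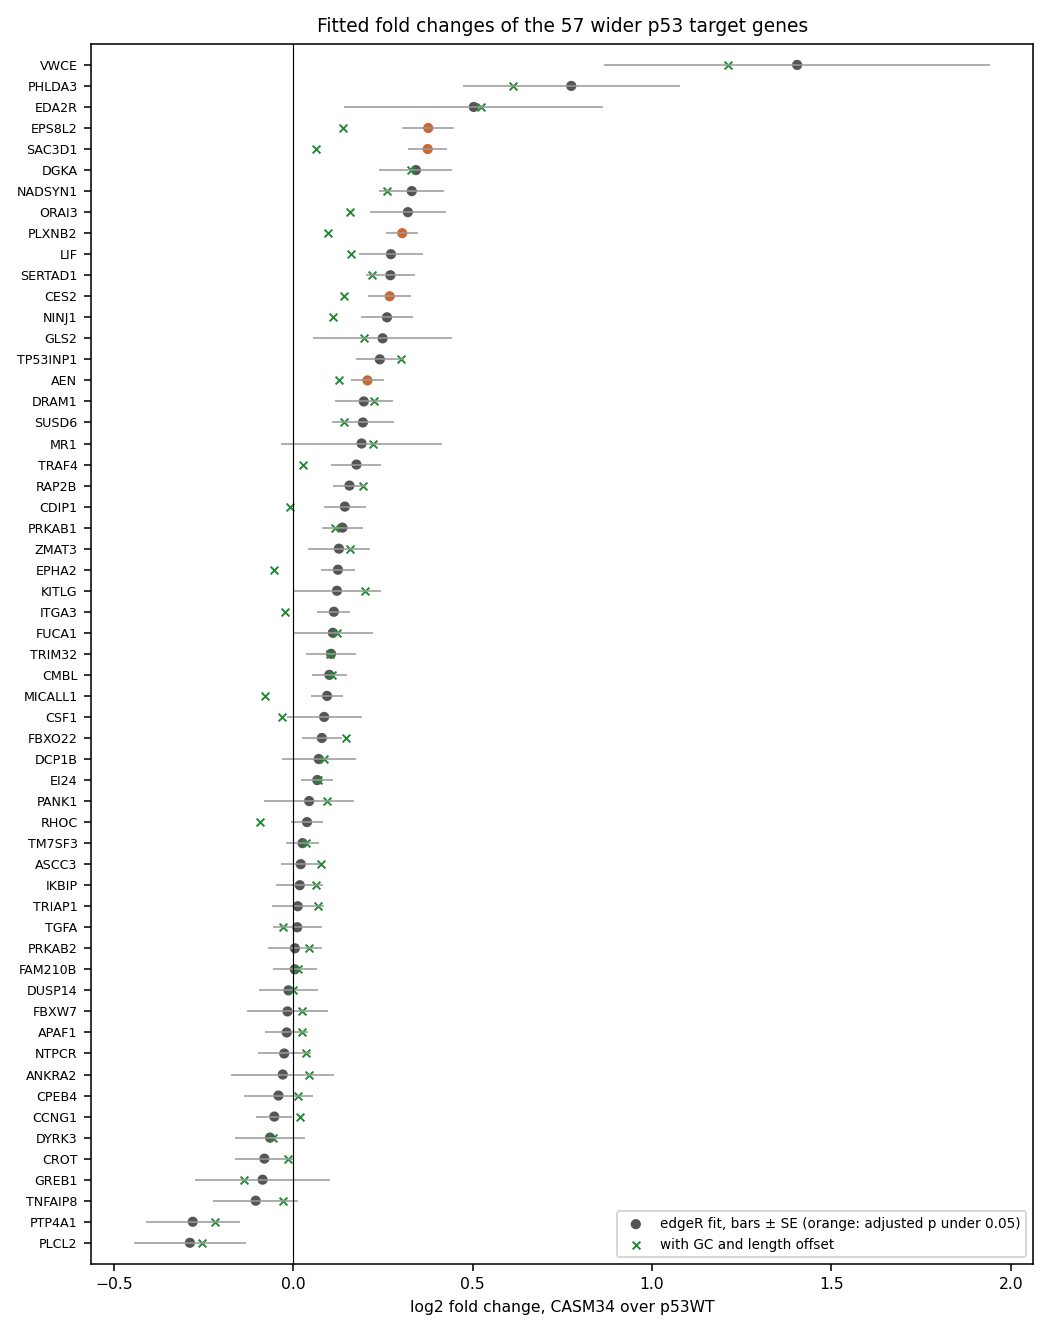
Fitted log2 fold change of CASM34 over p53WT for the 57 members (points, bars ± SE, orange for the 5 that rose), sorted, with the value from the fit with a GC and length offset as a green cross. Points of VWCE, PHLDA3 and EDA2R lie furthest right with the widest bars, and the crosses of SAC3D1, PLXNB2 and EPS8L2 lie well to the left of their points.

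For 31 of the 57 members, AEN among them, the 95% interval of the log2 fold change lay within 1.25-fold in either direction (0.32 on the log2 scale). Per length the members spanned a wide range of levels, from 0.310 TPM for VWCE to 526 TPM for RHOC (means of 4 libraries), with a median of 15.6 TPM. There were 6 members at 100 TPM or more: RHOC, ITGA3, TM7SF3, EPHA2, EI24 and CCNG1. None of these 6 passed, and their log2 fold changes lay between -0.05 and 0.12.

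A second list of 38 other p53 targets, among them the main arrest and apoptosis effectors, gives the scale of the wider targets in the same libraries. Of its 33 tested members 11 rose (33.3%) and 0 fell, with a median of 0.23, beside 8.77% and 0.11 for the 57 wider targets. The difference between the lists was not tested. The kinase inhibitor gene CDKN1A lay at 390 and 413 CPM in p53WT and 517 and 531 CPM in CASM34, and the ubiquitin ligase gene MDM2 at 132 and 138 CPM and at 157 and 158 CPM. With the GC and length offset CDKN1A and MDM2 both lay at 0.27 and passed (edgeR adjusted p = 0.0332 for both). In that fit 0.138% of all genes tested were called higher, and none of the 57 wider targets passed. The other tested genes of this list were not counted in it. Neither CDKN1A nor MDM2 passed in the fits on TPM (limma adjusted p = 0.255 to 0.497). With the effective length offset they did not pass either (edgeR adjusted p = 0.140 and 0.402). The summed mitochondrially encoded mRNAs, a sign of RNA or library state, lay at 13544 and 10354 CPM in p53WT and at 17264 and 13548 CPM in CASM34, and their part in the members' values was not tested.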

How the data were processed

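Poly(A) RNA of 4 H1299 libraries was sequenced. Trim Galore, STAR, RSEM and GRCh38 are named in the submitters' processing notes; tool versions, annotation release and strand setting were not given in the sources used here. Each deposited table holds RSEM expected counts, effective lengths and TPM, per the file headers. The authors' TPM are scaled per length and library.

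Expected counts were rounded. The main test was edgeR 4.0.16 in R 4.3.3 (quasi-likelihood F test, TMM, filterByExpr at a minimum count of 10, no term but group). "Rose", "fell" and "passed" mean a Benjamini-Hochberg adjusted p below 0.05 among 15965 genes. SE is the absolute log2 fold change over the square root of F, and 95% intervals use the t distribution of the fit. Libraries of 1 group differed by more than counting error (chi-square per degree of freedom 3.86 and 3.92). GC content is that of the GENCODE 29 transcripts of a gene. Alternatives were other scalings and filters, DESeq2 1.42.0, limma 3.58.1 (voom, and log2 TPM with a pseudocount of 1 or 0.1), offsets for effective length and for GC content and length, a replicate block and leaving out each library. In simulated counts of 15965 genes, 38% of 50 genes with a 1.25-fold change, 58% of 50 with a 1.5-fold change and 78% of 50 with a 2-fold change were called, and 7 of 143 calls were false. The simulated counts held no shift linked to GC content, unlike the real libraries, so these rates need not hold for the real libraries.

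The members, lists, tests and alternatives were chosen with earlier results of these data known. Values per library were given for each member that passed and for the 2 tested members of each role with the largest absolute log2 fold change; those of other members were added after their values were seen. Overlapping genes are from GENCODE 29, and without a stated strand setting reads of genes on both strands cannot be told apart. Some results are not reported here.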

Additional observations from a re-analysis of the deposited data

How the results depend on the processing

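The 5 rises among the members became 8 with no filter on low counts, 2 in DESeq2, and 0 in limma on log2(TPM + 1) or log2(TPM + 0.1), with an effective length offset or with the GC and length offset. At an unadjusted p under 0.05 those last 4 fits gave 13, 13, 19 and 13 members that were higher. With the GC and length offset 1 member was lower. The 13 higher in that fit (22.8%) and the 1 lower stand beside 4.14% and 8.51% of all genes. Falls numbered 1 (PTP4A1) with no filter on low counts. All genes changed, 312 in all, numbered 777 with no filter (542 higher and 235 lower), 195 in DESeq2 and 0 in either fit on TPM. They numbered 5 with the effective length offset and 44 with the GC and length offset. In these last 4 fits 1820, 1811, 1882 and 2020 of all genes had an unadjusted p under 0.05, higher or lower. The median member, 0.106, lay at 0.136 on log2(TPM + 0.1), 0.145 with the effective length offset and 0.077 with the GC and length offset. Leaving out each library gave 2 to 8 rises, 0 to 1 falls, 109 to 919 genes changed and medians of 0.09 to 0.11; the lone library of a group was assumed to vary like the others. PTP4A1 turned to 0.02 without CASM34 replicate 1 and lay at -0.62 without CASM34 replicate 2. Same-numbered libraries hardly deviated together (correlation 0.04 over 14097 genes), and nothing in the labels says that a number marks a shared culture. With a replicate block 13 members rose and 1 fell, and 1159 of all genes changed, 798 higher and 361 lower. The cause of these shifts was not tested.

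Over 16 alternatives 28 members kept a fitted value above 0, 1 (PLCL2) kept one below 0 and 28 changed sign in at least 1. PLXNB2 and SAC3D1 passed in 12 alternatives each, EPS8L2 in 10, AEN in 8 and CES2 in 7. PHLDA3, VWCE and EDA2R had 4 to 50 counts per library, and calls were not tested by count level.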
